A study of Danio rerio with 48 samples.

Results

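The genes described here are srsf5a (ENSDARG00000029818), RNPS1 (ENSDARG00000116743) and PPIE (ENSDARG00000103234), 3 of the 32520 gene IDs counted in 48 single zebrafish embryos. They were picked by hand from results of the same data, srsf5a because it rose with stage and RNPS1 and PPIE because they differed between strains. The embryos belonged to the laboratory strains TL and AB, were wild type as far as the labels say, and were collected whole each hour between 2.25 and 5.25 hours post fertilisation (hpf), at 4 stages with 6 embryos per strain and stage. In each group embryos 1 to 3 made up biological replicate 1 and embryos 4 to 6 biological replicate 2. No treatment or genetic change is given for any group, and all were naturally spawned and raised at 28.5 °C. RNA was counted by CEL-seq2, which tags the 3′ ends of polyadenylated transcripts with a barcode for each embryo before pooling. Each stage had a library index of its own, so stage and library pool cannot be told apart.

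Splicing removes introns from new transcripts, and it is carried out by the spliceosome with the help of many RNA-binding proteins. SR proteins, the family of SRSF5, bind exons through RNA recognition motifs, recruit the spliceosome through domains rich in arginine and serine, and are phosphorylated by SR protein kinases. In human cells RNPS1 is a peripheral partner of the exon junction complex, which marks spliced messages, and it forms the ASAP complex with SAP18 and acinus and the PSAP complex with SAP18 and pinin. PPIE, also called cyclophilin E, is in human cells a prolyl isomerase with an RNA recognition motif and a part of the intron-binding complex of the spliceosome. In the early zebrafish embryo, messages laid down by the mother are the only ones at first, and zygotic transcription starts in the blastula.

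Total counts per embryo ranged from 4931012 to 20036495, with a median of 9853532. The most abundant gene ID, ENSDARG00000080337, took 11.31% to 60.45% of an embryo's counts, with a median of 29.0%. All 6 markers of the early embryo were found in these libraries, and 5 of them, among them nanog, had counts in 48 of 48 embryos, while the mesodermal marker tbxta had counts in 32. Summed, the 6 gave 419 to 2120 CPM per embryo. The 4 matched markers of other tissues, from pancreas, blood, heart and neurons, summed to between 0 and 7.58 CPM. CPM are read counts relative to the library total, with TMM scaling factors from the fit of all 48 embryos. The fewest counts behind a value were 341 for srsf5a, 14 for RNPS1 and 16 for PPIE. In whole embryos, fewer cells of a type and less RNA per cell cannot be told apart.

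The level of srsf5a was similar at 2.25 and 3.25 hpf and several times higher at each later stage, in both strains. In TL embryos its level had a median of 53.7 CPM at 2.25 hpf (lowest 42.0, highest 59.7), 62.0 at 3.25 hpf (50.6 to 71.2), 304 at 4.25 hpf (206 to 387) and 1129 at 5.25 hpf (879 to 1294). In AB embryos the medians were 53.3 CPM (38.5 to 66.3), 60.3 (45.1 to 82.1), 295 (282 to 352) and 1033 (816 to 1398) at the same stages. The embryos of 2.25 and 3.25 hpf overlapped, and those of the last 3 stages did not overlap at all in either strain. The share of all genes without overlap between stages is not given here. Averaged over both strains, the log2 fold change was 0.26 (SE 0.11) from 2.25 to 3.25 hpf, 2.29 (SE 0.11) over the next hour and 1.83 (SE 0.11) over the last. These values chose the gene and are given without a test. The whole change, from 2.25 to 5.25 hpf, was 4.39 on the log2 scale (SE 0.12), with rank 553 of 14470 genes by size of rise, where 25.8% of all genes were called higher at 5.25 hpf. It was 4.43 (SE 0.16) in TL embryos alone and 4.38 (SE 0.18) in AB embryos alone.

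**Figure D1:**
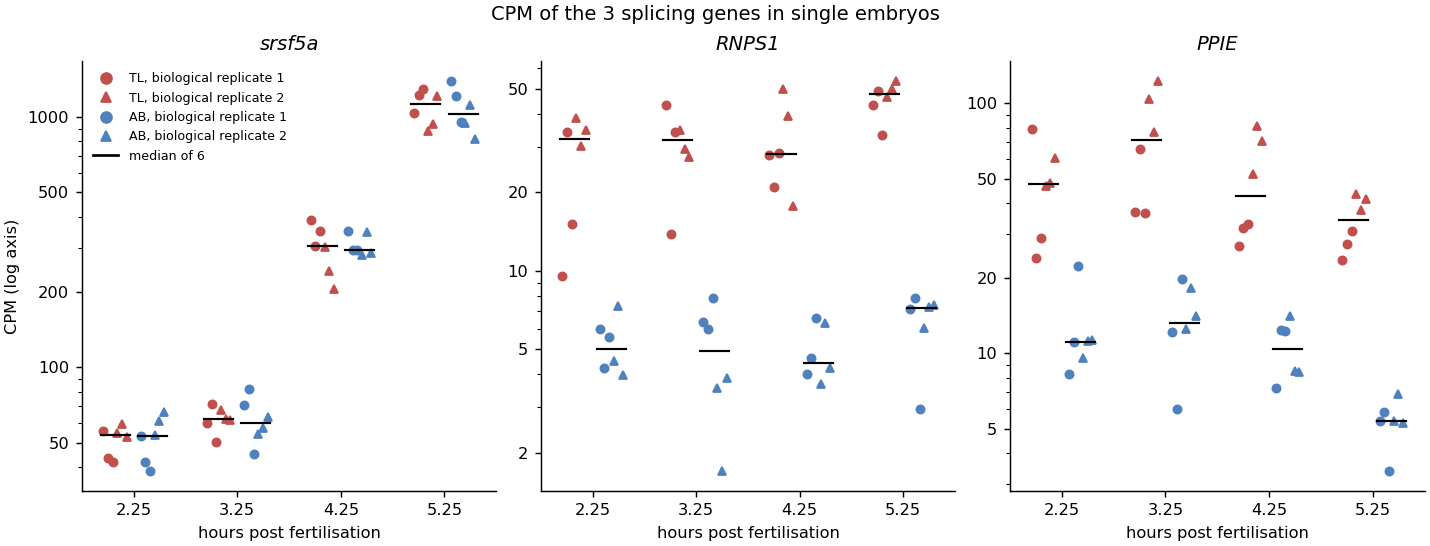
CPM (log axis) of srsf5a, RNPS1 and PPIE in each of 48 embryos by hours post fertilisation, TL in red to the left of AB in blue, with circles for biological replicate 1, triangles for biological replicate 2 and a black bar for the median of 6 embryos. The strains overlap for srsf5a at every stage. Every TL embryo lies above every AB embryo of its stage for RNPS1 and PPIE, which were chosen on their strain difference.

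The level of srsf5a did not differ between strains beyond the spread of embryos at any stage. Mean levels were 51.4 ± 7.13 CPM in TL and 52.4 ± 10.7 CPM in AB at 2.25 hpf, and 1098 ± 171 CPM in TL and 1072 ± 211 CPM in AB at 5.25 hpf (SD, n = 6 each). The log2 fold changes, TL over AB, were -0.04, -0.02, -0.05 and 0.05 from 2.25 to 5.25 hpf, each with an SE of 0.14 to 0.16. Their adjusted p values in edgeR's quasi-likelihood test were 0.892, 0.95, 0.851 and 0.888. For comparison, 17.8%, 15.7%, 20.4% and 10.7% of all genes tested were called different between strains at these stages (adjusted p under 0.05). Its strain difference at 5.25 hpf was not called different from that at 2.25 hpf (interaction 0.06 on the log2 scale, SE 0.21, edgeR adjusted p 0.995), where 0.352% of genes were called.

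Embryos of one group were alike in srsf5a. The coefficient of variation (CV, the SD as a percentage of the mean) was between 11.4% and 22.3% in the TL groups and between 10.2% and 21.0% in the AB groups. At 4.25 hpf in TL, the embryos of biological replicate 2 had a mean of 251 CPM, against 347 CPM in replicate 1, and did not overlap with them. The gap there was under 1 CPM, between 304 and 305 CPM. In AB at this stage the means were 306 CPM in replicate 2 and 314 CPM in replicate 1, with overlap. In AB at 2.25 hpf the replicates did not overlap either, with means of 60.2 CPM in replicate 2 and 44.5 CPM in replicate 1. Each replicate held 3 embryos of a strain, and the share of all genes without overlap between replicates is not given here. Over both strains the log2 fold change of replicate 2 over replicate 1 was 0.33, -0.04, -0.26 and -0.26 in order of stage (edgeR adjusted p 0.0935, 0.933, 0.225 and 0.226). Between the replicates, 8.08%, 1.07%, 6.58% and 13.6% of all genes were called at the 4 stages in order.

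A single other gene ID carries the SRSF5 symbol without a paralogue letter, ENSDARG00000027734, here called SRSF5. Its median level was 65.3, 64.4, 73.4 and 102 CPM in TL embryos from 2.25 to 5.25 hpf. In AB embryos it was 42.9, 55.9, 58.1 and 77.7 CPM. SRSF5 rose by 0.65 on the log2 scale from 2.25 to 5.25 hpf over both strains (SE 0.14, edgeR adjusted p 6.92e-05), a rise of 1.57-fold beside the 20.9-fold of srsf5a. That rise was 0.44 without replicate 1 (edgeR adjusted p 0.0283) and 1.00 without replicate 2. The strains were not called different in SRSF5 at any stage (log2 fold changes 0.28 to 0.39, edgeR adjusted p 0.0825 to 0.302). In a fit blocked by replicate, SRSF5 was called higher in TL at 2.25 hpf (log2 fold change 0.44, edgeR adjusted p 0.0316). Close copies could have shared reads, and how the counting split such reads is not given in the sources used here.

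RNPS1, which was chosen on its strain difference, was higher in every TL embryo than in every AB embryo of the same stage. The share of all genes with no overlap between strains is not given here. At 2.25 hpf its level was 32.1 CPM in the median TL embryo (lowest 9.53, highest 38.5) and 5.02 CPM in the median AB embryo (3.98 to 7.34). At 3.25 hpf the TL median was 31.7 CPM (13.9 to 43.3) and the AB median 4.93 CPM (1.70 to 7.86). The lowest TL embryos were number 1 at 2.25 hpf and number 2 at 3.25 hpf, and the ranges of the strains lay closest at the first stage. At 4.25 hpf the medians were 28.2 CPM in TL (17.7 to 49.9) and 4.43 CPM in AB (3.66 to 6.60). At 5.25 hpf they were 47.8 CPM in TL (33.1 to 53.8) and 7.19 CPM in AB (2.95 to 7.84).

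On the log2 scale, TL over AB, RNPS1 was 2.34 (SE 0.31), 2.60 (SE 0.32), 2.64 (SE 0.26) and 2.84 (SE 0.23) from 2.25 to 5.25 hpf. It held ranks 112, 87, 76 and 48 by size of excess in TL among the 11950, 11980, 11945 and 11602 genes tested. Of all genes, 8.18%, 7.20%, 10.2% and 5.21% were called higher in TL. This contrast chose the gene, so the values are a description without a test. The log2 ratio of TL to AB means within a biological replicate and stage ran from 1.90, in replicate 1 at 2.25 hpf, to 3.33, in replicate 2 at 3.25 hpf.

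**Figure D2:**
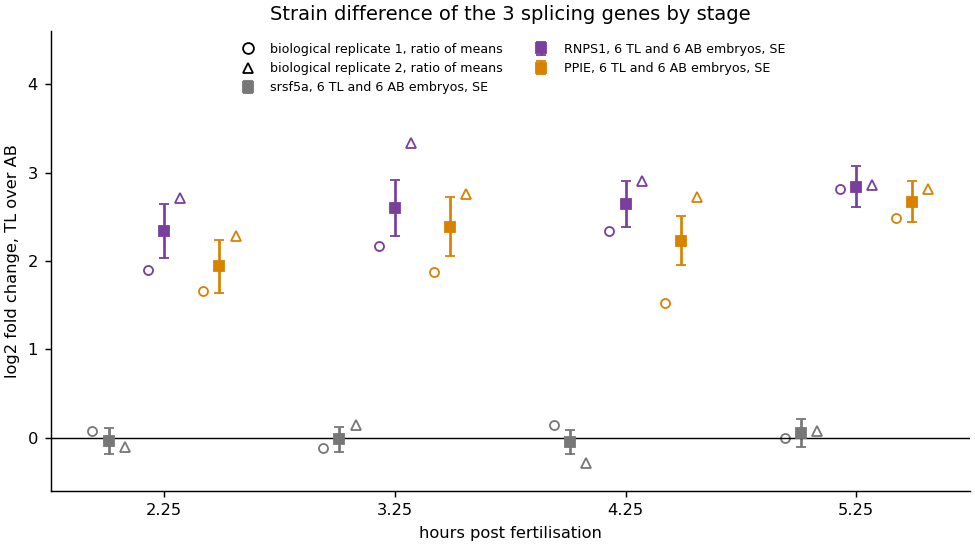
Log2 fold change of TL over AB (vertical axis) at each stage in hours post fertilisation for srsf5a, RNPS1 and PPIE. Squares with bars give the edgeR estimate ± SE from 6 TL and 6 AB embryos, open circles and triangles the log2 ratio of mean CPM within biological replicates 1 and 2. RNPS1 and PPIE lie between 1.52 and 3.33 in every replicate and stage, and srsf5a lies around 0.

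The rule did not use the change of RNPS1 with time, which was small beside its strain difference. Over both strains it rose by 0.54 on the log2 scale from 2.25 to 5.25 hpf (SE 0.21, edgeR adjusted p 0.0249), where 25.8% of all genes were called higher. The single steps had log2 fold changes of 0.04, 0.01 and 0.49 (edgeR adjusted p 0.977, 0.994 and 0.052). The share of all genes called in either direction was 1.80%, 16.4% and 42.5% in these steps. In TL embryos alone the change from 2.25 to 5.25 hpf was 0.78 (SE 0.29, edgeR adjusted p 0.0303), and in AB embryos alone it was 0.32 (SE 0.30, edgeR adjusted p 0.428). The strains' difference in this change, 0.46 on the log2 scale (SE 0.41), is built from the contrast that chose RNPS1 and was not tested. The rise over both strains was not called without replicate 1 (0.47, edgeR adjusted p 0.112) or without replicate 2 (0.69, edgeR adjusted p 0.0527).

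TL embryos varied among themselves in RNPS1 most at 2.25 hpf, with a CV of 43.8%, and least at 5.25 hpf, with 15.7%. In AB the CV ran from 24.3% at 2.25 hpf to 46.0% at 3.25 hpf. At 3.25 hpf the AB embryos of replicate 2 had a mean of 3.04 CPM, against 6.74 CPM in replicate 1, without overlap. With 3 embryos in each replicate, the share of all genes separated in this way is not given here. Over both strains the replicates were not called different at any stage (edgeR adjusted p 0.364 to 0.682).

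PPIE, chosen on the same contrast, was also higher in every TL embryo than in every AB embryo of its stage. Here too the share of all genes without overlap is not given. Its level at 2.25 hpf had a median of 47.5 CPM in TL embryos (lowest 24.1, highest 79.1) and 11.1 CPM in AB embryos (8.30 to 22.4). The highest AB embryo came close to the lowest TL embryo at this stage, and the other 5 AB embryos were at 11.3 CPM or below. At 3.25 hpf the medians were 71.2 CPM in TL (36.6 to 123) and 13.3 CPM in AB (5.99 to 19.9). At 4.25 hpf they were 42.6 CPM in TL (26.8 to 81.1) and 10.4 CPM in AB (7.25 to 14.1). At 5.25 hpf both were at their lowest, with 34.2 CPM in TL (23.7 to 43.5) and 5.37 CPM in AB (3.37 to 6.86).

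The log2 fold change of PPIE, TL over AB, was 1.94 (SE 0.30), 2.39 (SE 0.33), 2.23 (SE 0.28) and 2.67 (SE 0.23) in order of stage. Its ranks by excess in TL were 174, 111, 117 and 52 among the same numbers of tested genes. These are again the values that chose the gene. Within a biological replicate and stage, the ratio of TL to AB means ran from 2.87-fold in replicate 1 at 4.25 hpf to 6.99-fold in replicate 2 at 5.25 hpf.

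PPIE fell with stage. Over both strains it was lower at 5.25 than at 2.25 hpf by a log2 fold change of -0.84 (SE 0.22, edgeR adjusted p 0.000947), where 26.1% of all genes were called lower. In the single steps the log2 fold change was 0.39 (edgeR adjusted p 0.504), -0.49 (0.11) and -0.74 (0.00468). In AB embryos alone the change from 2.25 to 5.25 hpf was -1.17 (SE 0.27, edgeR adjusted p 0.000958), to a mean of 5.35 ± 1.14 CPM at 5.25 hpf, against 12.3 ± 5.09 CPM at 2.25 hpf. In TL embryos alone it was -0.48 (SE 0.32) and was not called (edgeR adjusted p 0.236). The difference between the strains in this change, 0.70 on the log2 scale (SE 0.43), is built from the contrast that chose the gene and was not tested. The last step was not called without replicate 2 (-0.59, edgeR adjusted p 0.147), while without replicate 1 the first step was called as a rise (0.72, 0.0189) and the second as a fall (-0.57, 0.0263).

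The biological replicates of TL stood apart in PPIE at the later stages. Replicate 2 had means of 101, 68.0 and 40.8 CPM at the last 3 stages in order, against 46.4, 30.5 and 27.3 CPM in replicate 1. At each of these stages the 3 embryos of one replicate did not overlap with the 3 of the other. The share of all genes without such overlap is not given here. In AB the means at these stages were 14.9, 10.3 and 5.83 CPM in replicate 2 and 12.7, 10.6 and 4.87 CPM in replicate 1, and the embryos overlapped. Over both strains the log2 fold change of replicate 2 over replicate 1 was 0.71, 0.58 and 0.44, with edgeR adjusted p of 0.214, 0.151 and 0.134. With no filter on low counts, the difference passed the threshold at 3.25 hpf (edgeR adjusted p 0.0306) and 4.25 hpf (0.0163), but not at 5.25 hpf (0.362). No other setting called it. Their adjusted p, by edgeR or DESeq2, was 0.114 to 0.581 at 3.25 hpf and 0.103 to 0.479 at 4.25 hpf. The labels give a pair of sequencing runs for every biological replicate, so run and replicate cannot be told apart.

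By side of the group's median, single embryos showed no common order in RNPS1 and PPIE, but the biological replicates enter this count. Of 24 TL embryos, 12 lay on the same side of their group's median in both genes and 12 on opposite sides, and of 24 AB embryos 14 lay on the same side and 10 on opposite sides. TL embryo 1 at 2.25 hpf had the lowest RNPS1 of its group, 9.53 CPM, and the highest PPIE, 79.1 CPM. TL embryo 2 of the same stage had 34.0 CPM of RNPS1 and the lowest PPIE of the group, 24.1 CPM. TL embryo 3 of that stage was second lowest in both, with 15.1 CPM of RNPS1 and 29.1 CPM of PPIE.

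**Figure D3:**
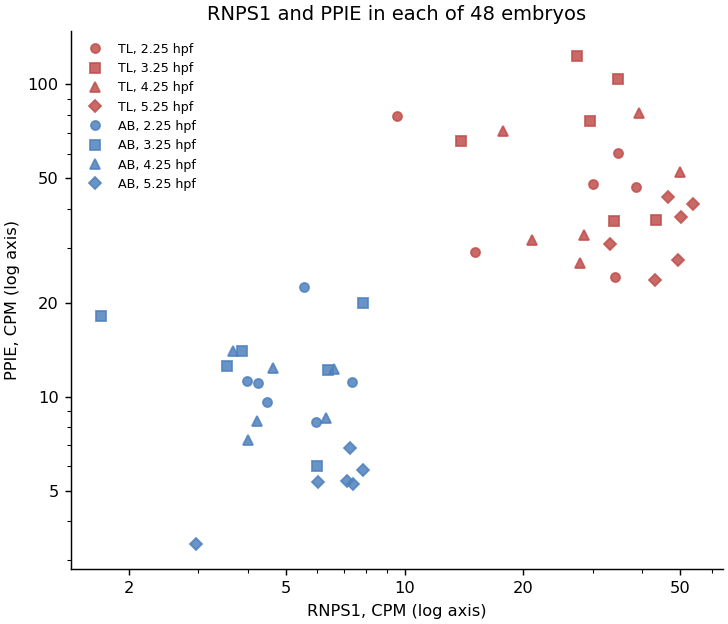
CPM of RNPS1 (horizontal log axis) and PPIE (vertical log axis) in each of 48 embryos, TL in red and AB in blue, with a marker shape for each stage. TL and AB embryos form separate clouds in these genes, which were chosen on their strain difference. AB embryos of 5.25 hpf lie at the bottom for PPIE, between 3.37 and 6.86 CPM, beside 1 AB embryo of 3.25 hpf at 5.99 CPM.

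To place these changes among other splicing genes, 5 lists with 84 gene IDs were counted beside them. From 2.25 to 5.25 hpf, 56 of 75 tested list genes rose and 5 fell. The median log2 fold change of the tested list genes was 0.60, against -0.01 over all genes. Without regard to sign, the median was 0.62 in the lists and 0.53 over all genes. Of all genes, 25.8% were called higher over this span and 26.1% lower, 51.9% in either direction. Of the SR proteins other than srsf5a, 15 of 16 tested rose and 0 fell, with a median of 0.97. Largest among them was SRSF6 (ENSDARG00000016783), at 148 ± 50.7 CPM at 5.25 hpf and 52.5 ± 19.2 CPM at 2.25 hpf (SD, n = 12 each), a log2 fold change of 1.53 (SE 0.11, edgeR adjusted p 1.28e-16). The list genes srsf2b, srsf2a and SRSF3 (ENSDARG00000025397) rose by 1.43, 1.38 and 1.35. The SRSF6 and SRSF3 symbols are each carried by a pair of IDs, whose reads could have been shared.

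Of the list of exon junction, ASAP and PSAP genes, which also holds the nonsense-mediated decay factors UPF1, upf3a and UPF3B, 6 of 8 tested genes rose and 0 fell, beside 25.8% of all genes called higher. The list's median was 0.49, with 0.25 without replicate 1 and 0.66 without replicate 2. RBM8A, a core subunit of the exon junction complex, rose by 1.08 (SE 0.10, edgeR adjusted p 1.03e-12). EIF4A3, its RNA helicase, rose by 0.58, CASC3, another core subunit, by 0.49 and PNN, which encodes pinin, by 0.53. Among the other spliceosomal cyclophilins and the intron-binding complex, 7 of 11 tested genes rose and 0 fell, beside the same 25.8%. Their median was 0.60, while PPIE fell over both strains. In TL embryos alone, where the fall of PPIE was not called, 7 of these list genes rose and 1 fell. In AB embryos alone, where it was called, 6 rose and 0 fell. The share of all genes called in these fits of a single strain is not given here, so these counts have no background. The list's median was 0.63 in TL alone, against -0.04 over all genes, and 0.58 in AB alone, against -0.00. PPIH, a cyclophilin of the tri-snRNP in human cells, rose by 0.98 (SE 0.09, edgeR adjusted p 1.97e-13), and PPWD1, PPIL4 and PPIL1 rose by 0.82, 0.72 and 0.70.

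In the core of the spliceosome 27 of 34 tested genes rose and 2 fell, with a median of 0.57. CRNKL1, SNRNP70, SNRPD3 (ENSDARG00000076283) and SNRPD1 rose most, by 1.33, 1.29, 1.29 and 1.22, and the falls, named after their values were seen, were SNRPG (-0.55) and SNRPD2 (-0.51). Of the SR protein kinases 1 of 6 tested genes was higher and 3 were lower, with a median of -0.42, beside 25.8% of all genes called higher and 26.1% lower. Without replicate 1 a single kinase was lower. The genes that fell were both CLK2 IDs, ENSDARG00000062954 by -0.85 and ENSDARG00000059870 by -0.63, and clk4a by -0.31, all kinases that phosphorylate SR proteins, and srpk1b rose by 0.64. The CLK2 and SNRPD3 symbols are also each carried by a pair of IDs, whose reads could have been shared. Size factors by the median ratio left the direction of every list median as it was and moved the median of all genes to 0.07.

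**Figure D4:**
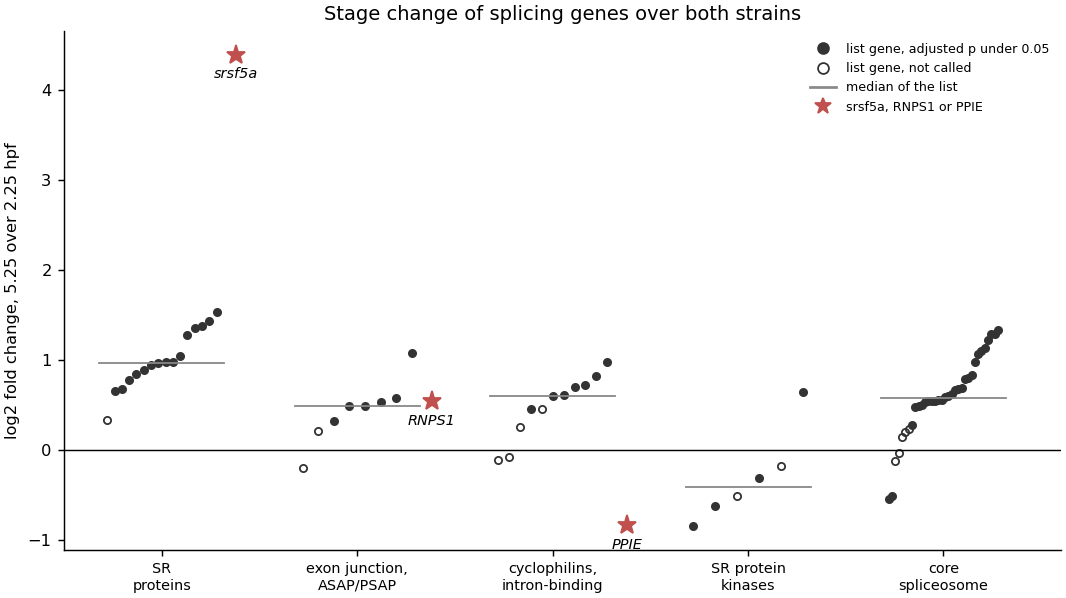
Log2 fold change of 5.25 over 2.25 hpf, averaged over both strains, for each tested gene of 5 splicing lists, with filled points for genes called at an edgeR adjusted p under 0.05, open points for the others and a grey line at each list's median. Red stars mark srsf5a at 4.39, RNPS1 at 0.54 and PPIE at -0.84, beside the list of their partners.

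Most of the list rises came late. From 2.25 to 3.25 hpf 2 list genes rose and 1 fell, from 3.25 to 4.25 hpf 26 rose and 4 fell, and from 4.25 to 5.25 hpf 57 rose and 1 fell. Of all genes, 1.41%, 8.96% and 20.3% were called higher in these steps, and 0.394%, 7.46% and 22.2% lower. SR proteins rose in 0, 11 and 13 of 16 cases, and the median of their log2 fold change was 0.12, 0.37 and 0.50, against 0.02, 0.00 and -0.02 over all genes. The 11 SR proteins of the middle step were 8 without replicate 1, 2 without replicate 2, 3 in TL alone and 2 in AB alone. Over all genes the 2375 calls of this step, in either direction, became 1155, 1781, 1054 and 782 in the same fits. Without replicate 1 the list genes called in the last step were 36 in place of 58, and in the middle step 19 without replicate 1 and 11 without replicate 2 in place of 30.

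Between strains, 5 list genes were called at every stage. The share of all genes called at all 4 stages is not given here, so this number has no background. At 2.25 hpf 3 of 75 tested genes were higher in TL and 4 lower, at 3.25 hpf 4 and 5, at 4.25 hpf 2 and 4, and at 5.25 hpf 2 and 4 of 74. The list's share was 9.33% at 2.25 hpf, beside 17.8% of all genes, and 8.11% at 5.25 hpf, beside 10.7%, and these differences were not tested. These shares come from fits without a replicate term and depend on it. With the replicate as a block, 15 list genes in place of 7 were called at 2.25 hpf, and 2681 in place of 2129 over all genes. Of all genes, 9.64%, 8.46%, 10.2% and 5.46% were called lower in TL at the 4 stages. CWC27, a cyclophilin of the spliceosome, was higher in TL at every stage, for example with 41.9 ± 7.17 CPM in TL and 15.9 ± 5.46 CPM in AB at 2.25 hpf (SD, n = 6 each), a log2 fold change of 1.38 (edgeR adjusted p 0.000326). CLK2 (ENSDARG00000062954) was also higher in TL at every stage, by 0.99 to 1.59. SRSF6 (ENSDARG00000016783), SF3A1 of the U2 snRNP and BCAS2 of the PRP19 complex were lower in TL at every stage, by log2 fold changes of -1.04 to -0.74, -1.07 to -0.83 and -0.92 to -0.68.

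With the biological replicate as a block, 15 list genes were called at 2.25 hpf in place of 7, and 10 at 4.25 hpf in place of 6. Over all genes the block also raised the calls, to 2681 in place of 2129 at 2.25 hpf and 2883 in place of 2435 at 4.25 hpf. Leaving out a replicate gave 4 to 9, 4 to 4, 4 to 14 and 2 to 2 calls in order of stage, in place of 7, 9, 6 and 6. Over all genes these fits gave 907 to 1427, 848 to 868, 1034 to 2834 and 412 to 479 calls, in place of 2129, 1875, 2435 and 1238. In sums over the embryos of a biological replicate, 5 list genes were called at 2.25 hpf, 5 at 3.25 hpf, 0 at 4.25 hpf and 0 at 5.25 hpf. The calls over all genes fell in these sums as well, to 873, 1053, 492 and 91.

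By Pearson correlation of log2 CPM over 48 embryos, among 9128 other genes, the levels most like srsf5a were those of tbx16, a mesodermal T-box factor (r = 0.981), lye (r = 0.981) and DDX5, an RNA helicase (r = 0.979). Stage and library pool are shared by these points. Means of DDX5 were 230, 260, 789 and 2340 CPM in TL and 253, 294, 808 and 1740 CPM in AB from 2.25 to 5.25 hpf. Means of tbx16 were 0.0516, 0.609, 71.7 and 521 CPM in TL and 0.139, 0.787, 82.3 and 704 CPM in AB.

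Most like RNPS1 were SETD3, an actin histidine methyltransferase (r = 0.923), PDCL3 (r = 0.903) and si:ch211-199g17.2 (r = 0.900). SETD3 had means of 54.6, 54.6, 61.3 and 81.7 CPM in TL and 18.3, 19.0, 22.4 and 20.3 CPM in AB. Most like PPIE were tgfb1a, which encodes a TGF-beta ligand (r = 0.899), scel (r = 0.864) and HOXB2 (r = 0.863). Levels of tgfb1a averaged 21.0, 21.3, 18.7 and 11.4 CPM in TL and 0.536, 0.459, 0.723 and 0.158 CPM in AB. Strain is shared by the points within each cloud and enters each of these correlations.

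The genes next to the 3 loci on RefSeq assembly GRCz12tu, 5 on each side that matched a tested gene ID by symbol, gave mixed strain differences. Around RNPS1, 3 of 38 tests of a neighbour at a stage were called (7.89%), 1 higher and 2 lower in TL. Around PPIE 12 of 36 were called (33.3%), 7 higher and 5 lower, and around srsf5a 8 of 37 (21.6%), 2 higher and 6 lower. The background was 10.7% to 20.4% of all genes at the 4 stages, and stages of one neighbour are not independent. Counted by gene, 4 of 10 neighbours of srsf5a, 3 of 10 of RNPS1 and 4 of 10 of PPIE were called at any stage. The share of all genes called at any stage is not given here. The calls around PPIE came from 4 genes, named after their values were seen. ZBTB8A was higher in TL at all stages (1.23 to 1.73 on the log2 scale), CLN8 at 3 stages, tmem54a was lower at all stages (-2.29 to -1.46) and erich1 was lower at 1. The largest log2 fold change among the neighbours of RNPS1 was 1.21, of MMD at 4.25 hpf.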

How the data were processed

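Whole single embryos of strains TL and AB were profiled by CEL-seq2, per the labels' protocols. As deposited, each of 4 tables holds unnormalized read counts for 12 embryos of a stage, by Ensembl gene ID, and each column name matched a single embryo's title. The submitters' processing notes name bcl2fastq 2.19.0.316, STAR 2.7.1a and edgeR 3.26.8. Counting program, build, annotation, strand and treatment of molecular identifiers are not given in the sources used here, so counting errors cover reads, not molecules.

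Strains were compared within each stage (TL minus AB, 12 embryos), and stages in 1 fit of 48 embryos averaged over strains, after filterByExpr and TMM, by the quasi-likelihood test of edgeR 4.0.16 in R 4.3.3 (limma 3.58.1). Benjamini-Hochberg adjustment ran over all genes tested, and genes under an adjusted p of 0.05 were called. The SE is the log2 fold change divided by the root of F. The main strain and stage fits had no replicate term, so their p values rest on single embryos and not on biological replicates. Alternatives were DESeq2 1.42.0, other filters and scalings, a replicate block, sums over biological replicates and fewer samples. Biological replicates pair the strains, since the labels give sequencing runs by replicate and the deviations of TL and AB correlated over genes at every stage, from 2.25 to 5.25 hpf by 0.259, 0.221, 0.164 and 0.457. Embryos are separate samples, but whether those of a replicate share parents is not stated.

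Of 85 splicing list entries 80 matched by symbol, with or without the paralogue letter, in a table of names. Named genes were the 3 genes, the copy of srsf5a, the 3 genes most like each (log2 CPM, prior count 2, mean of at least 5 CPM), and up to 4 called genes per list and comparison with the largest change. Members and lists were chosen with earlier results of these data known. The fits were tested on simulated data. No sequences are printed.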

Additional observations from a re-analysis of the deposited data

Results flagged for a closer look

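Single embryos stood far from the other 5 of their group in 2 of the 24 groups tested (3 genes, TL and AB, 4 stages) by Dixon's test at the 95% level, which by chance marks about 1 group in 20. PPIE in AB at 2.25 hpf was 22.4 CPM in the highest embryo, against 11.3 CPM in the next. RNPS1 in AB at 5.25 hpf was 2.95 CPM in the lowest embryo, against 6.03 CPM in the next. Both embryos were number 3 of their group.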

How the results depend on the processing

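Of 204 tested values of srsf5a, RNPS1 and PPIE under other settings, 176 kept direction and side of the threshold, and of 120 values without a test 116 moved by less than the spread of embryos. The exceptions follow, and where a cause is not plain from fewer samples it was not tested. Strain differences of srsf5a, TL over AB, changed sign without being called. Leaving out a biological replicate gave -0.12 to 0.08 at 2.25 hpf, -0.14 to 0.10 at 3.25 hpf, -0.30 to 0.12 at 4.25 hpf and -0.00 to 0.12 at 5.25 hpf. At 3.25 hpf all 48 embryos in the fit gave 0.00, sums over biological replicates 0.01 and an exact permutation test 0.02 (p 0.877). Its interaction ran from -0.06 to 0.21 and its whole stage change from 4.09 to 4.73 when a replicate was left out.

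For RNPS1, leaving out a replicate gave a strain difference of 2.15 to 3.27 at 3.25 hpf and stage changes of -0.47 to 0.48, -0.31 to 0.41 and, from 2.25 to 5.25 hpf, 0.47 to 0.69. Its first step was -0.10 in AB alone and its second -0.01 with the replicate block. Its last step was called with median-ratio size factors (0.56), a mean of at least 10 counts (0.50), without the most abundant gene ID (0.51) and by DESeq2 (0.56). Its whole change was 0.32 in AB alone.

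For PPIE, leaving out a replicate gave a strain difference of 1.48 to 2.71 at 4.25 hpf, and steps of -0.05 to 0.72, -0.57 to -0.42 and -0.76 to -0.59. In TL alone its last step was -0.50 and its whole change -0.48. Replicate 2 over replicate 1 was 0.10 at 2.25 hpf with the strain term left out, and 0.69 and 0.59 at 3.25 and 4.25 hpf with no filter. The replicate block changed no call of these 3 genes.

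List genes called between strains were 15 (2.25 hpf) and 10 (4.25 hpf) with the replicate block, 12 at 2.25 hpf by DESeq2, and 5, 5, 0 and 0 from 2.25 to 5.25 hpf in sums over biological replicates, in place of 7, 9, 6 and 6. Leaving out a replicate gave 4 to 9, 4 to 4, 4 to 14 and 2 to 2. List genes called between stages, 3, 30 and 58 in the steps and 61 in all, were 1 to 1, 11 to 19, 36 to 55 and 47 to 63 when a replicate was left out. In the first step 1 was called with no filter, 0 in TL alone and 0 in AB alone, and in the second 8 in TL alone and 5 in AB alone. With an absolute log2 fold change of at least 1 they were 0, 0, 1 and 14 of 75 tested list genes. The same threshold left 116, 756, 2046 and 3356 of 14470 genes over all genes.

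Over all genes, strain calls numbered 2129, 1875, 2435 and 1238. The replicate block called 2681 at 2.25 hpf and 2883 at 4.25 hpf. Sums over biological replicates called 873, 1053, 492 and 91, all 48 embryos in the fit 2640 at 5.25 hpf, and leaving out a replicate 907 to 1427, 848 to 868, 1034 to 2834 and 412 to 479. Stage calls of 261, 2375, 6152 and 7507 became 116, 756, 2046 and 3356 with the fold threshold. The steps gave 69 and 1054 in TL alone, and 76, 782 and 3609 in AB alone. Without a replicate they were 1155 to 1781 in the second step and 3524 to 5730 in the third. RNPS1 and PPIE had as few as 14 and 16 counts in AB embryos, which limits the precision of single values there.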
